A study of Homo sapiens with 16 samples.

Results

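The genes described are 9 components and regulators of complement: C1S, C1R, C3, CFB, CFI, SERPING1, CD46, CD55 and CD59. Each was read from the transcript cluster (the set of array probes summed up for 1 gene) that the platform annotation gives exactly 1 symbol, and from the cluster with the highest mean where there were several, as for CFB with 3. The 9 genes had 11 such clusters among 33297 clusters in all, of which 19460 carry 1 symbol. The set was chosen by the log2 signal of C1S, which was higher in HCC70 cells with EZH2 knocked down than in their scrambled control, so the values of that contrast are given as a description with no test.

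Complement is a cascade of serum and tissue proteins that tags and lyses cells. In the classical pathway the protease C1r activates C1s, which cleaves the next components and leads to the deposition of C3, where all routes meet. Factor B, from CFB, builds the enzyme of the alternative pathway that amplifies this deposition. Factor I, from CFI, degrades deposited C3, C1 inhibitor, from SERPING1, blocks C1r and C1s, and the surface proteins CD46, CD55 and CD59 protect a cell's own membrane. The liver makes most circulating complement, and epithelial cells, including tumour cells, make part of it locally.

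The study changed the Polycomb repressive complex in breast cancer cell lines. EZH2 is the subunit that methylates histone H3 at lysine 27, and EED is a partner that the complex needs. RNA was measured on 16 Affymetrix arrays, 2 for each of 8 groups. HCC70 cells carried scrambled shRNA (sets a and b), shEZH2, shEED, the empty vector plKO Puro or the EZH2 cDNA vector fip EZH2, and MDA-MB-468 cells carried scrambled shRNA or shEZH2. All groups, controls included, were stably infected in the presence of polybrene and kept under puromycin. The labels name no hairpin sequence, and they do not say whether the 2 arrays of a group came from separate cultures or clones. The p-values measure only the spread between these arrays, which may be technical. The labels do not pair the scrambled sets with the knockdowns. From the blocks of sample codes, shEZH2 was compared with set a and shEED with set b, and because the answers turn on this choice, values against the other controls are given too. The empty vector was taken as the control of the EZH2 cDNA from the same blocks. The titles give these groups different vector names, so effects of the cDNA and of the vector cannot be told apart. Set a is the control of the contrast that chose the genes. P-values and calls of complement genes against set a, alone or with set b, are therefore descriptions and not independent tests.

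All levels are log2 signals, so a difference of 1 is a factor of 2, and signals of different genes are not compared. A cluster was tested if it reached a log2 signal of 6, called the floor here, on at least 2 of the 16 arrays. That held for 16175 clusters and for 8 of the 9 genes. SERPING1 was below the floor on every array. Array medians ran from 5.37 to 5.53. EZH2 signal fell by 1.47 ± 0.07 (SE of the fit; limma, adjusted p = 3.35e-07) with shEZH2 in HCC70 and by 1.67 ± 0.07 (adjusted p = 2.56e-07) in MDA-MB-468, and EED signal fell by 0.82 ± 0.11 (adjusted p = 3.47e-04) with shEED. EZH2 signal with the EZH2 cDNA was 10.23 against 9.94 with the empty vector, a difference that missed the threshold (adjusted p = 0.0961). All 7 breast epithelial markers were above the floor on all 16 arrays. The leukocyte marker PTPRC (3.21 to 3.44), the macrophage marker CD163, all 3 lymphocyte and all 3 endothelial markers with a cluster, 4 of 5 fibroblast markers and the hepatocyte markers ALB (3.49 to 3.77) and TTR were below it on all 16. Of the other hepatocyte markers, SERPINA1 (5.84 to 6.95) was above the floor on 14 arrays and APOA1 on 1. The macrophage markers CD14 (9.58 to 10.89) and CD68 (7.37 to 9.86) were above it on all 16, and CSF1R (4.86 to 6.39) on 2. The fibroblast marker COL1A1 (6.29 to 7.56) was above it on all 16. In RNA from a whole culture, fewer cells that express a gene and less of its RNA in each cell cannot be told apart.

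Promoter windows are shown for C1R and CFB, which together with C1S lay above every HCC70 control array in the shEZH2 arrays, for CFI, whose level was far apart between the cell lines and close within HCC70, and for CD59, which lay below every HCC70 control array with shEZH2 and also holds a match. Each is the 250 bases before a RefSeq transcription start on GRCh38.p14, printed 5′ to 3′ in the direction of the gene. The start sites and windows are RefSeq's, and no binding or histone mark was measured here. Capitals mark matches to the STAT motif GAS (TTCNNNGAA, its own reverse complement) and to the interferon motif ISRE (GAAA, any 2 bases and GAAA again, searched on both strands, so it can also appear as TTTC, any 2 bases and TTTC). The motifs can share bases, and none of the matches shown did.
CFB, chr6:31945845-31946094, plus strand: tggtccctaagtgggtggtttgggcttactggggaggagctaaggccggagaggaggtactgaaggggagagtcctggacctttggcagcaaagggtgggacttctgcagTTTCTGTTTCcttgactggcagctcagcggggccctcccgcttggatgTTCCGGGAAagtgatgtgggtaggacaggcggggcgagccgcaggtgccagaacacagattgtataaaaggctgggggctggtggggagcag
C1R, chr12:7091894-7092143, minus strand: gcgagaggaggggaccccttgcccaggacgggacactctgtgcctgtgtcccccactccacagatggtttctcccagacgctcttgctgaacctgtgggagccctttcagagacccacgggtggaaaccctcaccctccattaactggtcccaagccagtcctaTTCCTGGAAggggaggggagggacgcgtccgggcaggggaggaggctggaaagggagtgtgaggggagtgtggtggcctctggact
C1R, chr12:7092446-7092695, minus strand: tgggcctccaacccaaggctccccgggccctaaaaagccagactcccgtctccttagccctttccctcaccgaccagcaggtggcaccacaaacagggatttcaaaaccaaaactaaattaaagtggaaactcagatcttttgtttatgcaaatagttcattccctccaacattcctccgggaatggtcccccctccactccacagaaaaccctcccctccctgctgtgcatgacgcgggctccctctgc
CFI, chr4:109802000-109802249, minus strand: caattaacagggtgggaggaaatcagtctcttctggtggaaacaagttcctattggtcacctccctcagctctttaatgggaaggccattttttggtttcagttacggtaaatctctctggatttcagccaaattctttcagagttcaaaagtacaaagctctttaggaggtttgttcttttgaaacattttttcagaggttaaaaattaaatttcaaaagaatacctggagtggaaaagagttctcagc
CD59, chr11:33736480-33736729, minus strand: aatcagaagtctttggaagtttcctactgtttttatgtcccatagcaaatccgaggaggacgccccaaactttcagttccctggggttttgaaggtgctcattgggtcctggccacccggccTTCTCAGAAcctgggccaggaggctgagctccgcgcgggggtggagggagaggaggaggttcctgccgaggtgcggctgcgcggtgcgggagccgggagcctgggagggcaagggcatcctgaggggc

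The CFB window holds 1 GAS match, TTCCGGGAA, that begins 92 bases before the start, and 1 ISRE match on the opposite strand, TTTCTGTTTC, that begins 140 bases before it. The first C1R window holds 1 GAS match, TTCCTGGAA, 86 bases before its start. The CD59 window shown holds 1 GAS match, TTCTCAGAA, 128 bases before its start. Another CD59 window overlaps it and holds the same match, 184 bases before its own start. The remaining CD59 windows and those of CD46 and CD55 are not printed and hold no match. CD59 was printed partly for its match, so nothing is read from which genes hold the motif. The second C1R window and the CFI window hold these letters nowhere. Among 35116 windows of the same length, 6.57% hold a GAS match and 3.02% an ISRE match. Base composition differed among the windows, with 60.0% G or C for CFB, 63.2% and 54.0% for the C1R windows, 38.0% for CFI and 62.0% for CD59. On the reference, C1S, C1R and C1RL are consecutive genes of chromosome 12.

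C1S, the protease that cleaves the components after C1, was highest in HCC70 with shEZH2 and was seen above the floor in HCC70 only. Its 2 arrays with shEZH2 read 9.07 and 8.61, against 6.46 and 6.30 with scrambled set a, 7.02 and 7.0 with set b, and 6.29 and 6.18 with the empty vector. The shEZH2 arrays stood apart from all 10 other HCC70 arrays, which did not exceed 7.02. Against set a the difference was 2.46 ± 0.15, a 5.50-fold higher signal. This is the value that chose the genes, and it was 1.83 against set b and 2.60 against the empty vector. With shEED the C1S arrays read 6.84 and 6.64, and with the EZH2 cDNA 6.36 and 6.35. The shEED arrays thus lay below set b and above set a and the empty vector, with differences of -0.27, 0.36 and 0.51. The EZH2 cDNA arrays were within the range of set a. In MDA-MB-468, C1S read 4.47 and 4.11 with scrambled shRNA and 4.15 and 4.29 with shEZH2. These groups overlap below the floor, where a change of a dim signal may not be seen (difference -0.07 ± 0.15, adjusted p = 0.811). In order of mean level, shEZH2 in HCC70 was followed by set b, shEED, set a, the EZH2 cDNA, the empty vector and both MDA-MB-468 groups. Set a and the EZH2 cDNA overlapped, as did the MDA-MB-468 groups, and the other neighbours in this order did not.

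C1R, the protease that activates C1s, was higher in both HCC70 knockdowns than in their controls. Its arrays read 8.39 and 8.21 with shEZH2 and 7.90 and 7.76 with shEED. Control arrays read 6.85 and 6.72 in set a, 7.31 and 7.51 in set b, and 7.36 and 7.31 with the empty vector. Every knockdown array was above all 6 HCC70 control arrays. The shEZH2 difference was 1.52 ± 0.12 against set a (2.86-fold), 0.89 against set b and 0.96 against the empty vector. For shEED, C1R rose by 0.42 ± 0.12 against set b (1.34-fold, limma, adjusted p = 0.0421). This call is near the threshold: without any 1 of the 4 arrays compared its adjusted p was 0.0700 to 0.290, without any 1 of the set a or EZH2 cDNA arrays, which enter only through the shared spread, 0.0504 or 0.0552, and against set a the difference was 1.05 (adjusted p = 6.99e-05). With the EZH2 cDNA, C1R read 7.49 and 7.30 and overlapped the empty vector (difference 0.06 ± 0.12, adjusted p = 0.917). In MDA-MB-468 it stayed below the floor in both groups, at 5.74 and 5.53 with scrambled shRNA and 5.42 and 5.69 with shEZH2 (difference -0.08 ± 0.12, adjusted p = 0.720). By mean level both HCC70 knockdowns led, and the EZH2 cDNA, set b and the empty vector behind them overlapped. C1RL, the next gene on the chromosome and a protease related to C1R, is named after its values were seen. It read 7.56 and 7.39 with shEZH2 against 6.92 and 6.85 in set a, a difference of 0.59 ± 0.10, and 7.14 and 7.16 in set b.

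**Figure D1:**
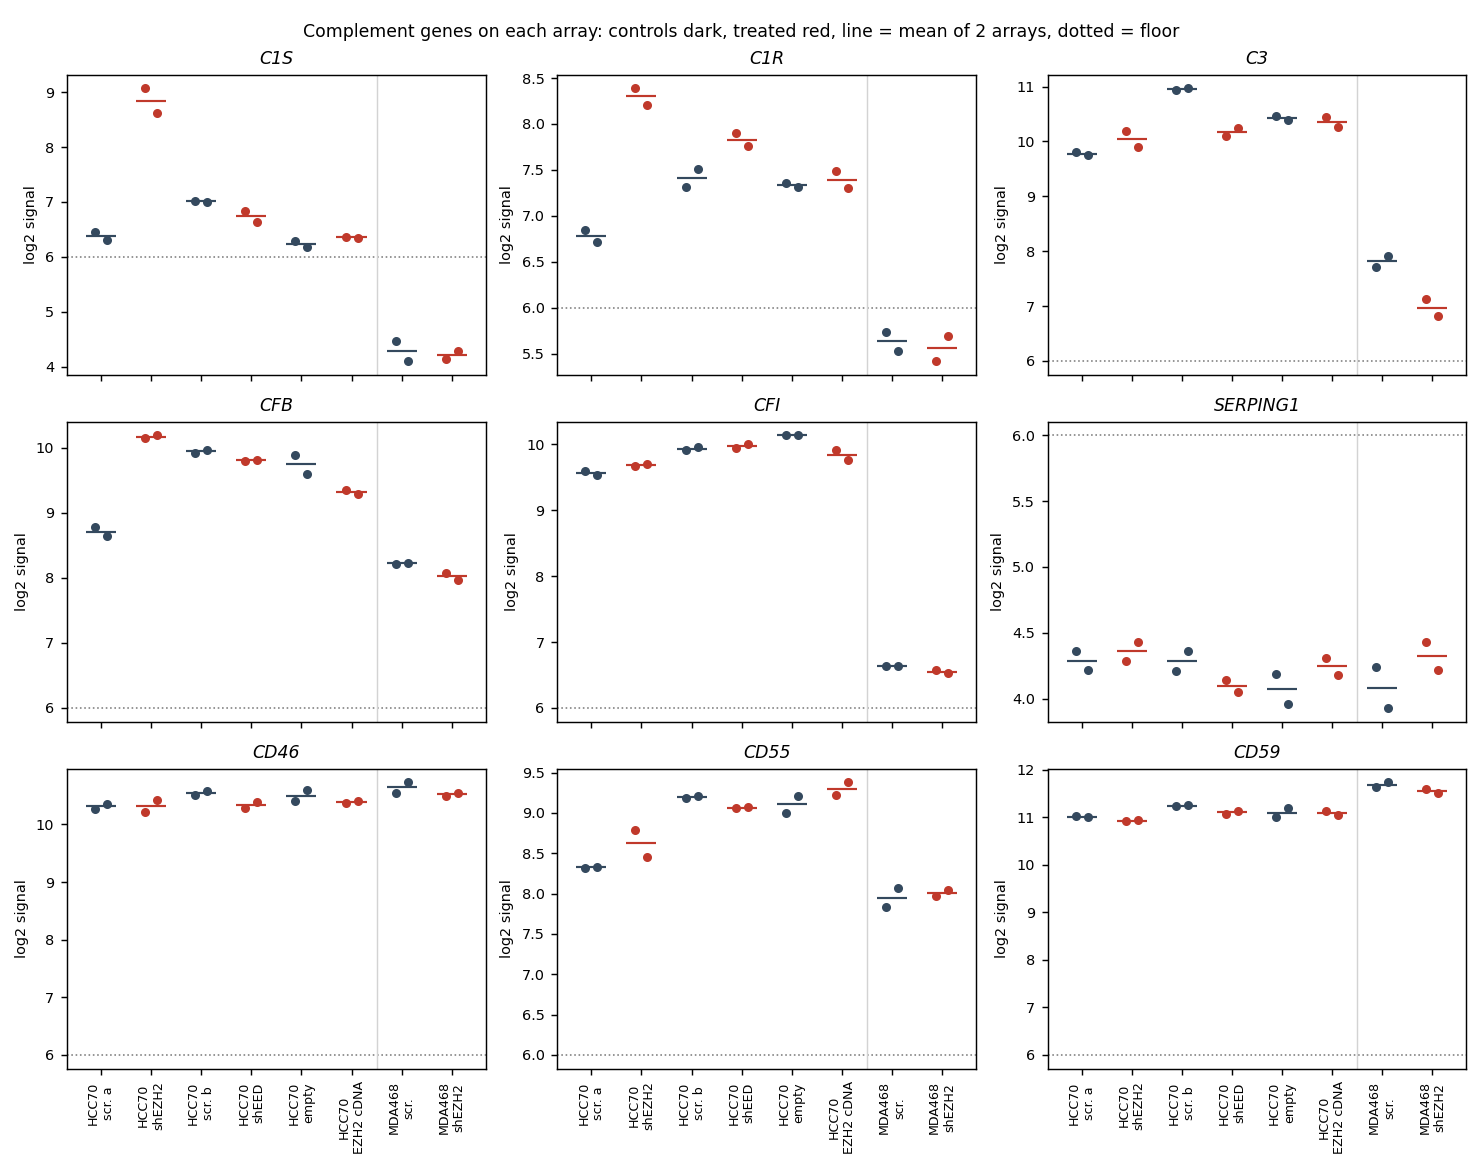
Log2 signal (vertical axis, a separate range for each gene) of the 9 complement genes on each of 16 arrays, with 1 point per array and a bar at the mean of each of the 8 groups. The shEZH2 arrays of HCC70 lie above all other HCC70 arrays for C1S and C1R, C3 and CFB vary among the control groups, and SERPING1 stays below the floor of 6.

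C3, the component on which all pathways converge, fell in 2 of the tested comparisons. In MDA-MB-468 it read 7.71 and 7.92 with scrambled shRNA and 7.12 and 6.82 with shEZH2, without overlap. The fall was 0.84 ± 0.13 on the log2 scale (a factor of 1.79, limma, adjusted p = 0.00321). It held when any 1 of the 16 arrays was left out (adjusted p up to 0.0441) and missed the threshold when only the 4 MDA-MB-468 arrays were fitted (adjusted p = 0.120). In HCC70, C3 read 10.93 and 10.97 in set b and 10.09 and 10.24 with shEED, and fell by 0.79 ± 0.13 (a factor of 1.72, limma, adjusted p = 0.00164). That direction belongs to set b: against set a, where C3 read 9.80 and 9.75, the shEED difference was 0.39 (adjusted p = 0.0313), and against both sets together it was -0.20 (adjusted p = 0.207). The shEED arrays lie between the scrambled sets. With shEZH2 the HCC70 arrays read 10.19 and 9.89, and the difference was 0.26 ± 0.13 against set a, -0.91 against set b and -0.39 against the empty vector. With the EZH2 cDNA C3 read 10.45 and 10.26 against 10.47 and 10.39 with the empty vector, which overlap (difference -0.08 ± 0.13, adjusted p = 0.902). In HCC70, set b was the highest group and set a the lowest, with every treated group between them.

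CFB, the protease of the alternative pathway convertase, was the other gene whose shEZH2 arrays in HCC70 passed every control array. They read 10.15 and 10.19, against 8.78 and 8.64 in set a, 9.92 and 9.96 in set b, and 9.89 and 9.60 with the empty vector. The difference depended on the control: it was 1.46 ± 0.09 against set a (2.75-fold), 0.23 against set b and 0.43 against the empty vector. Set a, not the knockdown, stood farthest from the remaining HCC70 arrays. With shEED, CFB read 9.80 and 9.81, which is 0.13 ± 0.09 below set b (adjusted p = 0.412), 1.10 above set a (adjusted p = 7.56e-06) and 0.48 above both sets together (adjusted p = 0.00120). The values that use set a are descriptions, since set a helped to choose the genes. With the EZH2 cDNA, CFB read 9.35 and 9.28, below both arrays of the empty vector. The difference of -0.43 ± 0.09 missed the threshold (limma, adjusted p = 0.0612), and passed it without replicate 2 of the empty vector (-0.58, adjusted p = 0.0225). Of the 2 other CFB clusters, 1 passed it (-0.45, adjusted p = 0.0453) and the other did not (-0.44, adjusted p = 0.0540), so the clusters give like sizes on either side of it. In MDA-MB-468, CFB read 8.21 and 8.23 with scrambled shRNA and 8.07 and 7.97 with shEZH2 (difference -0.20 ± 0.09, adjusted p = 0.208).

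CFI, the protease that inactivates C3 fragments, varied little among the HCC70 groups. Its HCC70 arrays ran from 9.54 to 10.14, with set a lowest and the empty vector highest. With shEZH2 it read 9.67 and 9.71 against 9.60 and 9.54 in set a, a difference of 0.12 ± 0.07. This difference was -0.24 against set b, so its sign follows the control. With shEED it read 9.95 and 10.00 against 9.91 and 9.96 in set b, which overlap (0.04 ± 0.07, adjusted p = 0.806), and the difference from set a was 0.40 (adjusted p = 0.00116). With the EZH2 cDNA it read 9.92 and 9.77 against 10.14 on both arrays of the empty vector (-0.30 ± 0.07, adjusted p = 0.0961). In MDA-MB-468 it read 6.64 and 6.63 with scrambled shRNA and 6.57 and 6.53 with shEZH2 (-0.08 ± 0.07, adjusted p = 0.498). SERPING1, which encodes the inhibitor of C1r and C1s, lay between 3.93 and 4.43 on all 16 arrays and was not tested. Its shEZH2 arrays in HCC70 read 4.29 and 4.43 beside 4.36 and 4.22 in set a.

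CD46, CD55 and CD59, the membrane regulators, were above the floor on every array of both lines, and none passed the threshold in any of the 3 tested treatments. CD46, a cofactor for factor I, ran from 10.22 to 10.60 in HCC70 and from 10.49 to 10.73 in MDA-MB-468. Its differences were 0.01 ± 0.10 for shEZH2 against set a, -0.20 ± 0.10 for shEED (adjusted p = 0.209), -0.11 for the EZH2 cDNA (adjusted p = 0.783) and -0.12 ± 0.10 for shEZH2 in MDA-MB-468 (adjusted p = 0.487). CD46 thus moved by less than its own spread over control means, 10.32 to 10.54. CD55, which speeds the decay of the convertases, read 8.79 and 8.46 with shEZH2 in HCC70. Controls read 8.32 and 8.33 in set a, 9.19 and 9.21 in set b, and 9.0 and 9.21 with the empty vector. The shEZH2 arrays are above set a by 0.30 ± 0.12 and below the other controls, by -0.57 for set b and -0.48 for the empty vector. With shEED, CD55 read 9.06 and 9.07, which differs by -0.13 ± 0.12 from set b (adjusted p = 0.544) and by 0.75 from set a (adjusted p = 5.97e-04). With the EZH2 cDNA it read 9.22 and 9.38, 0.20 ± 0.12 above the empty vector (adjusted p = 0.642). In MDA-MB-468 it read 7.83 and 8.07 with scrambled shRNA and 7.97 and 8.04 with shEZH2, which overlap (0.06 ± 0.12, adjusted p = 0.795). CD59, which blocks the membrane attack complex, read 10.92 and 10.94 with shEZH2 in HCC70, just under the lowest of the 6 control arrays at 11.00. Its difference was -0.08 ± 0.08 against set a and -0.32 against set b. With shEED it read 11.08 and 11.14 (-0.14 ± 0.08 against set b, adjusted p = 0.309), with the EZH2 cDNA 11.13 and 11.05 (-0.01 against the empty vector, adjusted p = 0.988), and in MDA-MB-468 11.63 and 11.74 with scrambled shRNA beside 11.60 and 11.52 with shEZH2 (-0.13 ± 0.08, adjusted p = 0.359).

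**Figure D2:**
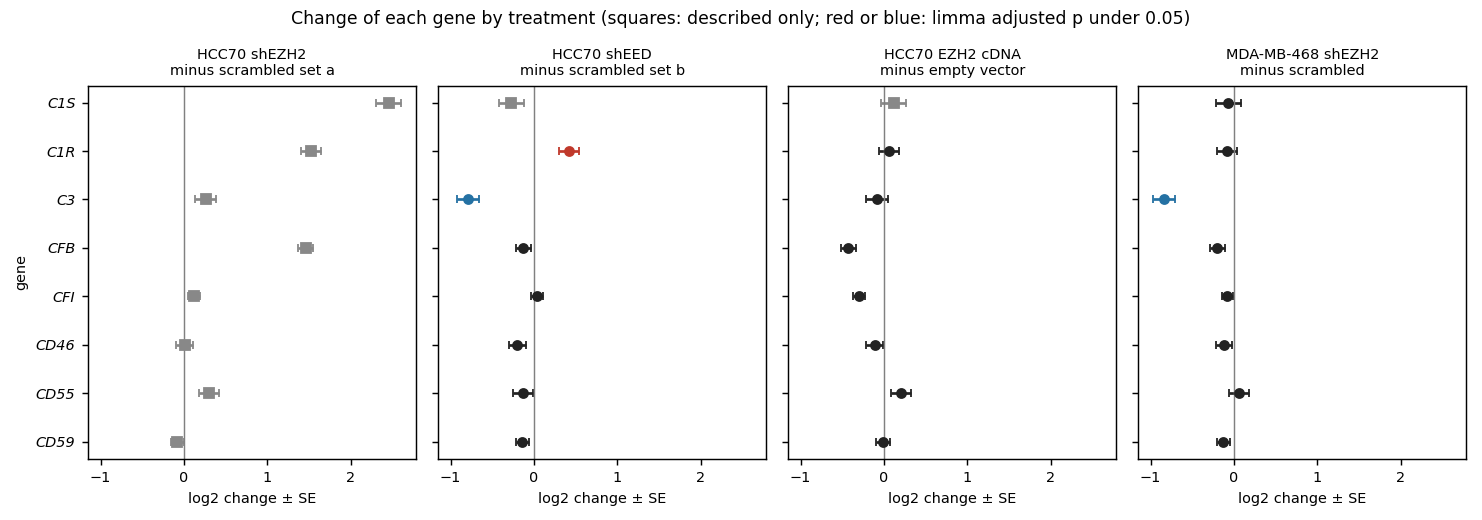
Treated minus control difference in log2 signal (horizontal axis) for the 8 complement genes above the floor, with each of the 4 treatments against the control taken for it and error bars of 1 SE of the limma fit. C1S, C1R and CFB lie far to the right for shEZH2 in HCC70 against set a, at 2.46, 1.52 and 1.46 (grey squares, not tested). C3 lies to the left in blue for shEED and for shEZH2 in MDA-MB-468, and C1R to the right in red for shEED.

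Counted over the genes, few passed the test. By limma at an adjusted p under 0.05, 1 of 6 genes (C3) fell and none rose in MDA-MB-468 with shEZH2. Of all 16175 clusters, 8.30% passed, 2.73% higher and 5.57% lower. The 6 genes are those above the floor in both lines. C1S and C1R are left out of this count, since they passed the floor only through HCC70. For shEED against set b, 1 of 7 genes (C1R) rose and 1 (C3) fell, where 14.2% of clusters passed, 6.63% higher and 7.53% lower. C1S is left out of that test, since it was picked for its rise in this line. For the EZH2 cDNA, 0 of 7 genes passed by limma, 2 (CFB and CFI) had an unadjusted p under 0.05, and 0.977% of clusters passed. These shares are too near the background to say anything of the genes as a set. In the contrast that chose them, both shEZH2 arrays of HCC70 lay above both set a arrays for 6 of 9 genes and below for 1 (CD59). The clusters at large did so in 28.2% and 25.1%, and nothing is read from that comparison.

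The HCC70 controls differed among themselves in these genes. C1S was higher in set b than with the empty vector by 0.78 ± 0.15 (1.71-fold, limma, adjusted p = 0.0249), the only 1 of 8 genes called between these controls, where 1.90% of clusters were called. That call was lost without any 1 of the 4 arrays compared (adjusted p 0.0828 to 0.200). C3 was 0.52 ± 0.13 higher in set b and missed the threshold (adjusted p = 0.0674), which it passed without either shEZH2 array of HCC70 (0.0407) or of MDA-MB-468 (0.0473). Set b exceeded set a by 1.23 for CFB, 1.18 for C3, 0.88 for CD55, 0.63 for both C1S and C1R, 0.37 for CFI, 0.24 for CD59 and 0.22 for CD46. Set a had the lowest mean of the 3 control pairs in 7 of the 8 genes, C1S being the exception, as against 39.8% of all clusters. Set a belongs to the contrast that chose the genes, so nothing is read from that count. What sets these control arrays apart was not tested. Against all 6 control arrays at once, both shEZH2 arrays were higher for 3 of 8 genes (C1S, C1R and CFB, 12.1% of clusters) and lower for 1 (CD59, 9.26%). The shEZH2 and set a arrays chose the genes, so nothing is read from the shEZH2 count. Both shEED arrays were higher for C1R alone (20.3% of clusters), and both EZH2 cDNA arrays were higher for CD55 alone (6.96%), by 9.22 against 9.21 at the nearest. None of the 8 lay below all 6 controls with shEED (11.2% of clusters) or the EZH2 cDNA (4.10%).

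**Figure D3:**
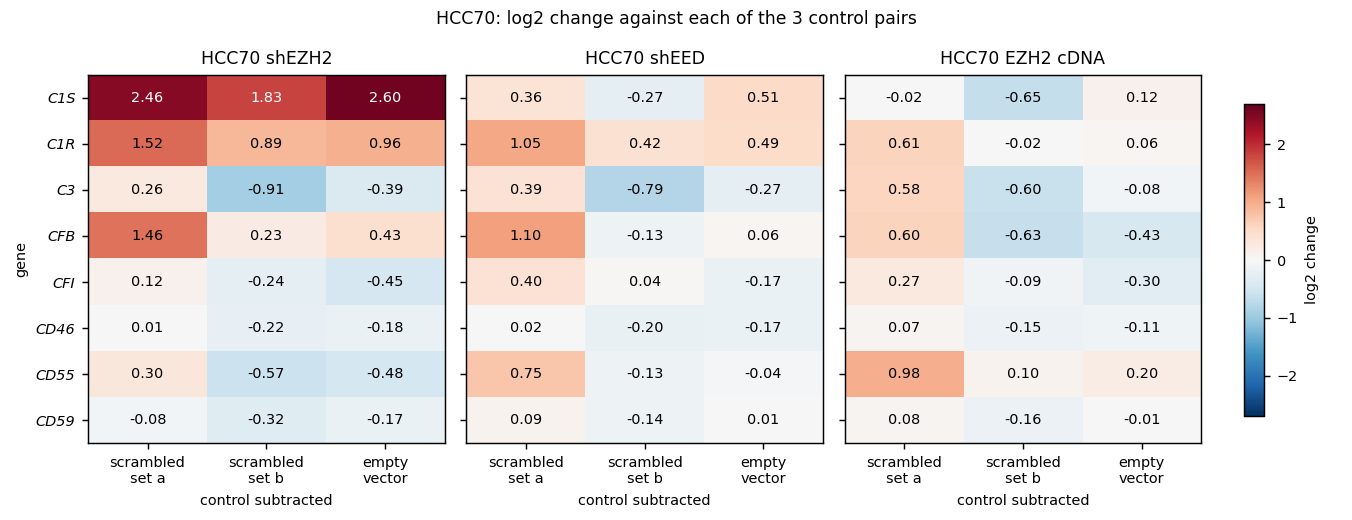
Heat map of the difference in mean log2 signal (colour and printed value) between each treated HCC70 group (1 panel for each of 3) and each of the 3 HCC70 control pairs (columns), for the 8 complement genes above the floor (rows). For shEZH2, C1S stays between 1.83 and 2.60 and C1R between 0.89 and 1.52 whichever control is used, whereas C3 runs from -0.91 to 0.26 and CD55 from -0.57 to 0.30.

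C3, CFI, CFB and CD55 were higher in HCC70 than in MDA-MB-468, and CD59 was lower. The amounts depended on the HCC70 control, most for C3, CFB and CD55. Comparing HCC70 set b with the MDA-MB-468 scrambled arrays, 4 of the 6 genes above the floor in both lines were higher in HCC70 and 1 was lower by limma at an adjusted p under 0.05, where 61.7% of all clusters passed, 28.3% higher and 33.5% lower. CFI was higher by 3.30 ± 0.07 (9.86-fold, adjusted p = 7.25e-12) and C3 by 3.14 ± 0.13 (8.81-fold, adjusted p = 1.19e-09). With the empty vector these differences were 3.51 and 2.62, and with set a 2.94 and 1.96. CFB was higher by 1.72 ± 0.09 (3.30-fold, adjusted p = 1.88e-08) in set b, by 1.52 with the empty vector and by only 0.49 in set a (adjusted p = 7.15e-04). CD55 was higher by 1.25 ± 0.12 (2.38-fold, adjusted p = 2.37e-06) in set b, by 1.16 with the empty vector and by 0.37 in set a (adjusted p = 0.0158). CD59 was lower in HCC70 by 0.44 ± 0.08 (adjusted p = 6.02e-04), with -0.59 for the empty vector and -0.67 for set a. CD46 did not pass with set b (-0.10 ± 0.10, adjusted p = 0.387) and did with set a (-0.32, adjusted p = 0.0118). C1S and C1R are left out of these counts, since they passed the floor only through HCC70, being above it on 12 of 12 HCC70 and 0 of 4 MDA-MB-468 arrays. Their set b means exceeded those of MDA-MB-468 by 2.72 and 1.77, sizes that are uncertain because the lower level is dim. Each line is 1 line, and these differences are between HCC70 and MDA-MB-468 only.

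Of 53 other complement genes, 46 had a cluster with 1 symbol, and 36 of these were below the floor on all 16 arrays. Of the 10 tested, none rose in the 3 tested treatments, and 1 fell with shEZH2 in MDA-MB-468, 2 with shEED and 0 with the EZH2 cDNA. Over all clusters, 5.57% fell with shEZH2 in MDA-MB-468 and 7.53% with shEED, and 0.977% passed with the EZH2 cDNA. COLEC11 and CFP reached the floor on 3 arrays each and ITGB2 on 4, so changes in them may not be seen. The median differences of the 10 were -0.01, -0.06 and -0.01, beside -0.02, 0.02 and 0.02 over all clusters. Clusterin (CLU), a soluble chaperone that blocks the terminal complex, read 10.19 and 10.17 with scrambled shRNA in MDA-MB-468 and 9.81 and 9.74 with shEZH2. It fell by 0.41 ± 0.11 (limma, adjusted p = 0.0419), a call lost without any 1 of these 4 arrays (adjusted p 0.0944 to 0.190) and without a set b (0.0650) or shEED array (0.0509). In HCC70, CLU read 8.63 and 8.70 in set b and 7.95 and 8.15 with shEED, and fell by 0.62 ± 0.11 (adjusted p = 0.00280). Set a, at 7.26 and 7.05, lay below the shEED arrays, so that against set a the CLU difference was 0.89 (adjusted p = 9.01e-05). SUSD4, a membrane protein with complement control domains, read 8.31 and 8.33 in set b and 7.49 and 7.50 with shEED. It fell by 0.82 ± 0.08 (adjusted p = 4.31e-05) and kept that direction against set a (SUSD4 difference -1.10, adjusted p = 2.38e-06). With shEZH2 in HCC70, CLU differed from set a by 0.95 ± 0.11 and SUSD4 by -0.76 ± 0.08, and the SUSD4 arrays, at 7.86 and 7.81, were below all 6 control arrays. The CLU arrays with shEZH2, at 8.11 and 8.09, were below set b and below the empty vector (8.95 and 8.90). The sign of the CLU difference thus followed the control.

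Cytokine receptors, their ligand IL6 and the STAT, IRF, NF-kB and C/EBP factors are known to drive transcription of complement genes. With the feedback inhibitors SOCS1 and SOCS3 the list held 29 genes, of which 27 had a cluster with 1 symbol and 26 were tested. With shEZH2 in MDA-MB-468, 0 rose and 1 fell: IL1R1, the interleukin-1 receptor, by 0.54 ± 0.14 (limma, adjusted p = 0.0364, 0.288 without replicate 2 of the scrambled arrays and 0.189 without replicate 1 of shEZH2). Without a set a, set b, shEED or EZH2 cDNA array the adjusted p of IL1R1 was 0.0526 to 0.0549. With shEED, IL6 rose by 0.55 ± 0.12 (adjusted p = 0.00986, 0.111 without replicate 2 of set b and 0.108 without replicate 1 of shEED), while IFNGR2, a chain of the interferon-gamma receptor, fell by 0.58 ± 0.11 (adjusted p = 0.00345) and OSMR, the oncostatin M receptor, by 0.60 ± 0.10 (adjusted p = 0.00279). Against set a, IFNGR2 differed by -0.24 and OSMR by -0.01, and neither passed, while against both sets together they differed by -0.41 (adjusted p = 0.00625) and -0.30 (adjusted p = 0.0268). IL6 with shEED was 2.85 above set a, which lay below the floor, and 1.70 above both sets together (adjusted p = 7.85e-07). With the EZH2 cDNA, IL6 was the only 1 of the 26 called, reading 7.37 and 7.48 against 6.51 and 6.76 and rising by 0.79 ± 0.12 (adjusted p = 0.00967). That call was lost without replicate 1 of the empty vector (0.0887) or either EZH2 cDNA array (0.0699 and 0.137). The medians of the 26 were -0.03, -0.13 and 0.08 in these comparisons, where 8.30%, 14.2% and 0.977% of all clusters passed. With shEZH2 in HCC70 against set a, 21 of 26 were above 0 with a median of 0.25, beside 0.01 over all clusters, which is a description of the contrast that chose the complement genes. The direction depended on the control. Against set b the shEZH2 means were lower for IL6 (5.57 against 7.04), OSMR (11.15 against 11.54) and IFNGR2 (7.75 against 7.92). For IL1R1 the shEZH2 mean was higher than that of set b (9.15 against 8.43).

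**Figure D4:**
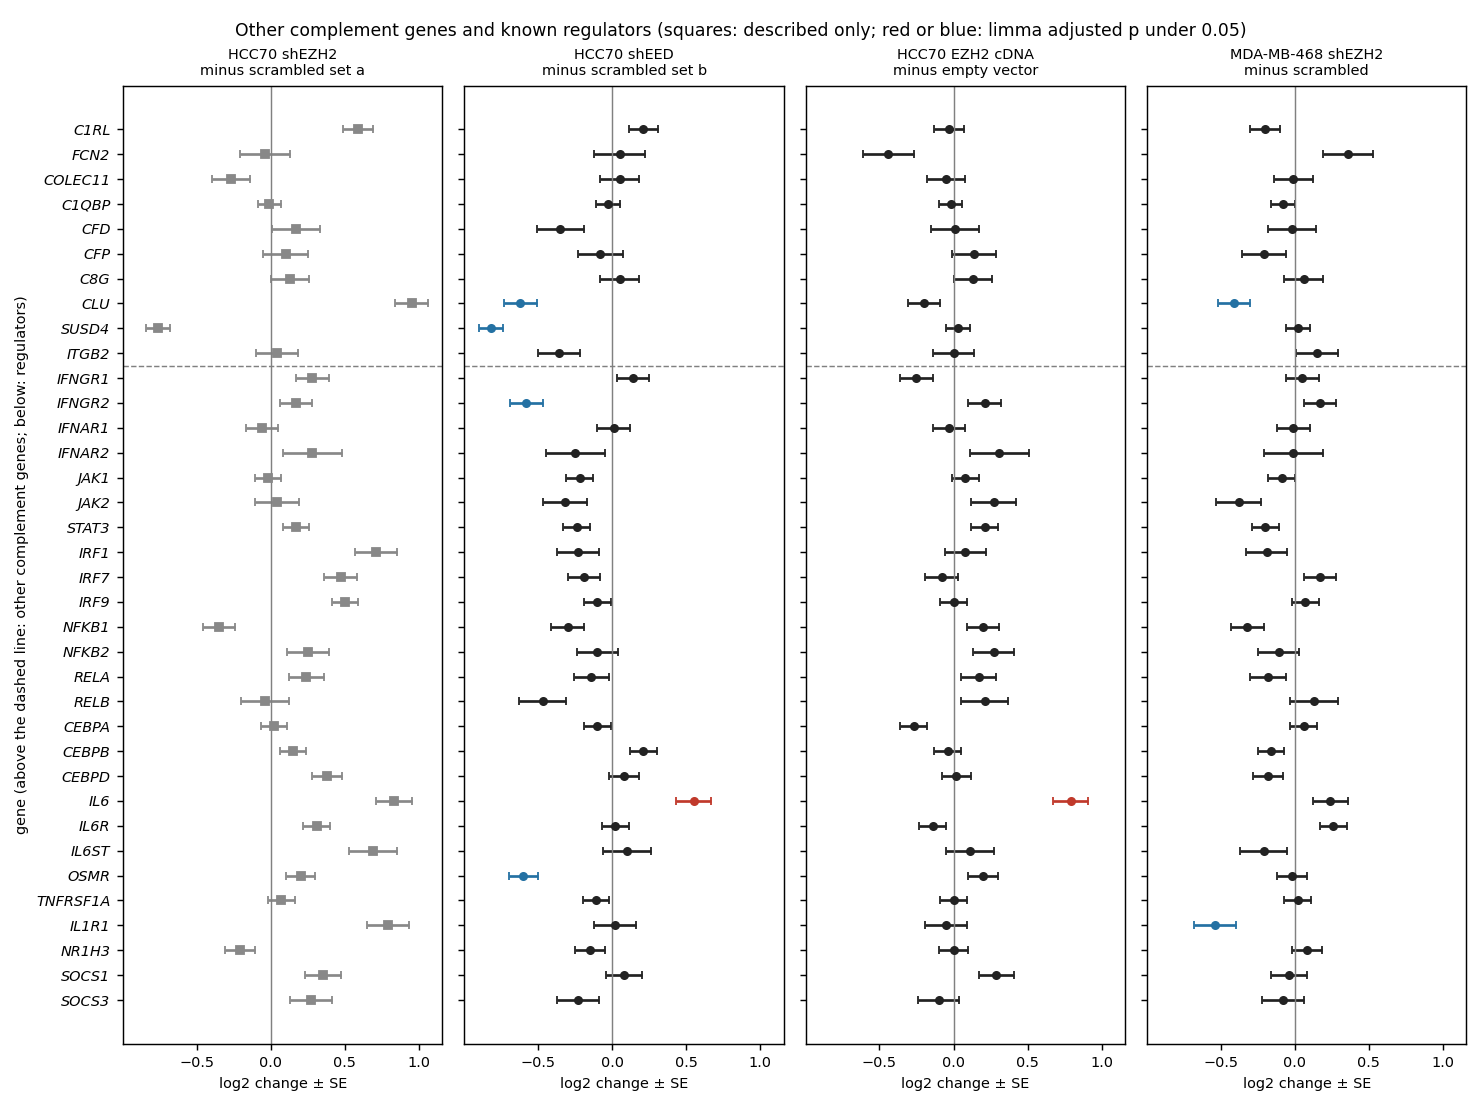
Treated minus control difference in log2 signal (horizontal axis, with error bars of 1 SE of the limma fit) for the 10 other complement genes and the 26 regulators tested, 1 panel for each of the 4 treatments. Blue points mark the falls of CLU, SUSD4, IFNGR2 and OSMR with shEED and of CLU and IL1R1 in MDA-MB-468, red points mark IL6 with shEED (0.55) and with the EZH2 cDNA (0.79), and grey squares are values given without a test.

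Some genes followed the pattern of C1S over the 16 arrays. The 5 clusters with the highest Pearson correlation to C1S were those of MCAM (0.973), HTR3A (0.971), ABHD14A (0.968), HEG1 (0.962) and BASP1 (0.960). Within the 12 HCC70 arrays these were 0.913 to 0.951. For C3 the nearest were DIPK2A (0.985), UBE3C (0.983), TSPAN2 (0.982), NECAP2 (0.982) and CMTR2 (0.982), and within HCC70 0.763 to 0.850. Among the complement genes, C1S and C1R correlated at 0.942 over 16 arrays and 0.805 within HCC70, C1R and CFB at 0.949 and 0.835, and C1S and C3 at 0.775 and -0.109. C1S and C3 are thus alike through the difference between the lines and not within HCC70. These are descriptions, since the arrays are duplicates of 8 groups and share cell line and treatment.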

How the data were processed

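The authors deposited log2 signals for each transcript cluster on each array, made with RMA in Affymetrix Expression Console, per the submitters' processing notes. RMA corrects background, normalizes between arrays and sums up the probes of a cluster, and it compresses changes of dim clusters. Software versions and the genome build: not given in the sources used here. Groups came from titles and descriptions. A model of 8 group means over all 16 arrays was fitted with limma 3.58.1 in R 4.3.3 to the 16175 clusters at a log2 signal of 6 or above on at least 2 arrays, and called at a two-sided Benjamini-Hochberg adjusted p under 0.05 over all of them in each comparison. The fit was tested on simulated data. Arrays give no read depth, and their number limits the precision.

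Members and lists were chosen with earlier results of these data known. All 9 members and both targeted genes are named. Of 2 further lists, genes called in a tested treatment are named, and the 5 clusters most like C1S and C3. Alternatives were the floor, the scaling, the choice of control, an intensity trend, 1-symbol clusters only, the arrays compared alone, a replicate block and each array left out. Gene names came from the platform annotation, and promoter windows from RefSeq, matched for 6 of the 9 genes. Sharing of replicate numbers was checked on the deviations from group means, which correlated at -0.0659 to 0.0774 over 2 pairs, so the numbers were not taken as pairs.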

Additional observations from a re-analysis of the deposited data

Results flagged for a closer look

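With shEZH2, HCC70 arrays (against set a) and MDA-MB-468 arrays moved opposite ways without overlap for 3 genes. How many clusters at large did so was not counted, so nothing is read from that number. In MDA-MB-468 only C3 passed the threshold, while CFB (-0.20, limma, adjusted p = 0.208) and CFI (-0.08, adjusted p = 0.498) did not. The change in HCC70 exceeded that in MDA-MB-468 by 1.66 for CFB, 1.11 for C3 and 0.21 for CFI. The difference was not tested, since the HCC70 contrast picked the genes. Against set b, C3 (-0.91) and CFI (-0.24) were lower in HCC70 too, and the opposition is then not seen for them. CFB was higher than set b by only 0.23.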

How the results depend on the processing

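For the EZH2 cDNA no gene was called, and 1 was with a floor of 7, an intensity trend, 1-symbol clusters only or CFB cluster 8178115. Between set b and the empty vector the count of 1 became 2 with a trend or 1-symbol clusters and 0 with only the 4 arrays compared. The shEED count of 2 became 1 with no floor or median centring, 5 against set a and 4 against both sets. Clusters at large rose too, from 2290 of 16175 to 5940 against set a and 4465 against both. Set a helped to choose the genes, so nothing is read from these counts. The MDA-MB-468 count of 1 became 0 with only its 4 arrays. Leaving out 1 array changed calls for the EZH2 cDNA, for set b against the empty vector and for shEED. It changed none in MDA-MB-468 or between the lines. Between the lines, 4 of the 6 genes above the floor in both were higher in HCC70 and 1 lower, with set b or the empty vector. With set a, an alternative chosen after seeing the data, 4 were higher and 2 lower, where 10849 of 16175 clusters passed.

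The scrambled set decided most signs in HCC70. With shEZH2, C1S was 1.83 higher than set b (2.23 to 2.69 with 1 array left out, against set a), while against set b C3 was -0.91, CD55 -0.57, CFI -0.24 and CD46 -0.22, and against both sets -0.32, -0.14, -0.06 and -0.10. CD46 was -0.01 with median centring. With shEED against set a, C3 was 0.39, CD46 0.02, CD55 0.75, CD59 0.09, CFB 1.10 and CLU 0.89; against both sets CD55 was 0.31, CFB 0.48 and CLU 0.14. Signs of differences near 0 also turned when 1 array was left out. For the EZH2 cDNA, C1R ran from -0.03 to 0.15, C3 from -0.18 to 0.02 and CD59 from -0.11 to 0.09. Between set b and the empty vector, C1R ran from -0.02 to 0.18, CD46 from -0.06 to 0.14 (-0.02 after another quantile normalization) and CD55 from -0.01 to 0.21. With shEZH2 in MDA-MB-468, C1S ran from -0.25 to 0.11, C1R from -0.22 to 0.05 and CD55 from -0.06 to 0.18, and in HCC70 CD46 ran from -0.09 to 0.11. The cause of these shifts was not tested.

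Over all clusters, the EZH2 cDNA called 158, 88 with no floor or with centring, 0 with its 4 arrays alone and 14 to 208 with 1 array left out. Set b against the empty vector called 307, with 190, 186, 0 and 44 to 463 in the same order. For shEZH2 in MDA-MB-468, 1343 became 848 with no floor, 21 with 4 arrays and 231 to 1836 with 1 left out, and the share called higher went from 32.9% to 18.8% with centring and 42.2% with quantile normalization; between set b and the empty vector it went from 73.3% to 59.8% with quantile normalization. For shEED, 2290 became 4439 with 4 arrays, 5940 against set a, 4465 against both and 1013 to 2729 with 1 left out. A replicate block left the counts of members called at 1, 2, 0 and 1 for MDA-MB-468 shEZH2, shEED, the EZH2 cDNA and set b against the empty vector. It changed no call of a member there or between the lines. With 2 arrays a group, and dim signals for C1S and C1R in MDA-MB-468, small changes could be missed.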

Other observations

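IL6, the cytokine that drives acute-phase genes, was lower in set a and with shEZH2 than in the other HCC70 groups. It read 4.75 and 4.72 in set a and 5.62 and 5.52 with shEZH2, all below the floor. It read 7.14 and 6.93 in set b, 7.71 and 7.46 with shEED, 6.51 and 6.76 with the empty vector and 7.37 and 7.48 with the EZH2 cDNA. Set a and set b carry the same kind of vector and lie on either side of the floor. IL6 was singled out here after its values were seen, and what sets these groups apart was not tested.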
